A study of Rattus norvegicus with 6 samples.

Results

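The sarcomere scaffold and Z-disc genes examined here were Actn2, Tcap, Neb, Xirp2, Nrap, Cmya5, Trim54, Lmod3 and Myoz3, 9 of the 15388 genes in the count tables. They were picked by symbol from a list, and the list was drawn up with the change of these genes in late pregnancy already known. All 9 symbols were found, each once. Thyroid RNA was sequenced from adult Sprague-Dawley rats in 2 groups of 3 samples, a non-pregnant group (NP) and a group in late pregnancy (LP, day 18, counted from the vaginal plug as day 1). The comparison asks how the maternal thyroid adapts to late pregnancy. The labels name no treatment or engineered allele in either group, and do not say how the gland was freed from the tissue around it.

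The sarcomere is the contractile unit of striated muscle. Thin actin filaments are anchored at its ends in the Z-disc, where α-actinin cross-links them, and thick myosin filaments are held together in the middle by the M-band. A set of scaffold proteins lines up these filaments, ties the Z-disc to the cell membrane at costameres, and regulates filament length and protein turnover. Thyroid follicles, made of epithelial cells, have no sarcomeres, but striated muscle of the neck lies against the gland.

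In NP thyroid the 9 genes were close to absent, and in LP thyroid they were among the genes with the largest differences. Together they took between 0.00162% and 0.00207% of the counted reads of an NP library and between 0.367% and 0.392% of an LP library, that is 162 reads over the NP libraries and 38229 over the LP libraries. Because the 9 genes were chosen for this difference, it is a description, and no test is attached to it. For the 7 genes with any NP read, the LP to NP ratio of depth-scaled reads ran from 139 for Neb to 1130 for Tcap. Lmod3 and Myoz3 had no NP read. All 9 genes passed the filter on low counts, which their LP reads alone could ensure, and all 9 were past a fold change of 2 and an adjusted p-value of 0.05. Of all 11738 genes tested, 4.90% were past these criteria in the same direction. Every LP library also lay above every NP library for each of the 9 genes, as it did for 21.1% of the genes tested. Since the 9 genes were chosen on this contrast, nothing is read from these counts. Bulk RNA cannot separate fewer cells of a type from less RNA per cell, and this holds for every value given here.

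Counted reads per library were between 2752144 and 2965936 in NP and between 3224104 and 3449857 in LP. A level of 3 reads, taken as the smallest the depth can show, was between 0.87 and 1.09 CPM (reads scaled to the normalized library size), a limit that covers counting error only. Replicates 2 and 3 of each group differed by no more than sampling noise, with chi-square values per degree of freedom of 1.02 in NP and 0.995 in LP. Each such pair was counted as 1 sample, so every mean ± SD has n = 2. The edgeR values rest on the 6 libraries as deposited, 3 per group, and so treat each pair as separate samples. With each pair summed, 2 samples per group, the adjusted p-values by edgeR were larger, for example 1.83e-11 for Ldb3 and 0.00234 for Actn1. Replicate 1 stood apart from them in both groups, with values from 3.7 to 4.11. P-values measure only the spread between these libraries, which may not be the spread between animals.

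The start regions of the genes are shown first, since the 9 genes were all higher in LP. RefSeq windows of the GRCr8 assembly, 250 bases before and 50 from the transcription start, were found for 7 of the 9 genes, with 2 windows for Lmod3. Tcap and Nrap were not matched. Of the genes with a window and reads in both groups, Cmya5, whose window held no match, is not printed. The windows of the other 4 are printed, with matches to 3 muscle-related motifs in capitals. These are the E-box CANNTG (the letters bound by MyoD family and other basic helix-loop-helix factors), the MCAT element CATTCC (TEAD factors) and the MEF2 site (MEF2 factors), each searched on both strands.
Actn2, chr17:62834805-62835104, plus strand: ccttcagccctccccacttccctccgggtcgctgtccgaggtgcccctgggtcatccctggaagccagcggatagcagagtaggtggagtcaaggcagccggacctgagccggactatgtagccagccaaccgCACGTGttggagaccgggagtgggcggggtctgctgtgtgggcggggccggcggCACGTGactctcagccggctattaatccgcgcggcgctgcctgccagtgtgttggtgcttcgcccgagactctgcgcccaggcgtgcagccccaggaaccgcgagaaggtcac
Neb, chr3:57220660-57220959, minus strand: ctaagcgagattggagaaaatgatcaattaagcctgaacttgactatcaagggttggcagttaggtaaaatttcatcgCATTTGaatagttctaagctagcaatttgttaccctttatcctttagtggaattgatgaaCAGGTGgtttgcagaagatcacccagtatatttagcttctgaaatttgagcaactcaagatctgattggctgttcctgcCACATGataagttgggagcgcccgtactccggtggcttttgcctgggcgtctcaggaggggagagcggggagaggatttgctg
Xirp2, chr3:72533936-72534235, plus strand: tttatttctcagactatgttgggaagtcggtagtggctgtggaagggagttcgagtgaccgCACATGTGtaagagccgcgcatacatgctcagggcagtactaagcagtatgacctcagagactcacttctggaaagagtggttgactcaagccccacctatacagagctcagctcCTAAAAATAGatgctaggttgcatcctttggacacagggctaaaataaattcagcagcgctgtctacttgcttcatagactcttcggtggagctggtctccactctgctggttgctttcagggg
Trim54, chr6:30978426-30978725, minus strand: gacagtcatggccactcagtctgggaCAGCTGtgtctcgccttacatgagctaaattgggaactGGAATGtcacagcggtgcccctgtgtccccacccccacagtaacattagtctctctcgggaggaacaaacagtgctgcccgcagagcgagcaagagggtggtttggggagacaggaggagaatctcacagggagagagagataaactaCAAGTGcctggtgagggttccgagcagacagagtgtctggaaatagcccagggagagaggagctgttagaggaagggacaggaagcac

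An E-box was found in 7 of the 8 windows, a share to be read against the 72.1% of all 33469 RefSeq windows that hold one. In the Actn2 window both matches had the letters CACGTG, at positions -117 and -63, where the start base is 0. The Xirp2 window held 2 overlapping E-boxes and the single MEF2 match, at position -74. A MEF2 match occurs in 3.29% of all windows. MCAT was found in the windows of Trim54 and Myoz3, against 14.2% of all windows. Neither the CArG box, which serum response factor binds, nor the letters TATAAA were found in the 8 windows, against 1.64% and 14.2% of all windows. The Cmya5 window held none of these motifs. A match describes the letters alone and is not evidence that a factor binds there.

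Actn2, Tcap and Myoz3 encode proteins of the Z-disc itself. Actn2 (ENSRNOT00000024098), α-actinin-2, which cross-links actin filaments in the Z-disc, was counted 2, 2 and 6 times in the NP libraries and 1453, 1502 and 1500 times in the LP libraries, in the order of replicates 1 to 3. The NP libraries lay near the limit of detection, and the LP libraries were all high and close to one another. The means were 1.01 ± 0.42 CPM (SD, n = 2) and 455 ± 13 CPM, and the ratio of reads was 401 (95% counting interval 218 to 838). Tcap (ENSRNOT00000085408), telethonin, which caps the ends of titin in the Z-disc, was counted once in NP replicate 1 and not in the other NP libraries, against 408, 442 and 406 times in the LP libraries. With a single NP read in all, the size of the ratio, 1130, was poorly fixed, with a counting interval from 203 to 44700. Its LP mean was 128 ± 3.2 CPM (SD, n = 2), the smallest relative spread of the 9 genes. Myoz3 (ENSRNOT00000025989), a myozenin that binds α-actinin and calcineurin, had no read in NP and 59, 75 and 81 reads in LP. It was the gene with the fewest LP reads, at 21 ± 3 CPM (SD, n = 2), and its LP level was at least 20.7-fold higher than a level of 3 reads in each NP library.

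Neb and Lmod3 belong to the thin filament. Neb (ENSRNOT00000076095), nebulin, a giant protein that runs along the thin filament and is anchored in the Z-disc, was counted 27, 21 and 30 times in the NP libraries and 3990, 4114 and 3963 times in the LP libraries. It was the gene of the list with the most reads in both groups, so its ratio was the best measured, at 139 (95% counting interval 112 to 176). Its means were 9.01 ± 0.91 CPM (SD, n = 2) and 1240 ± 54 CPM. Lmod3 (ENSRNOT00000047453), leiomodin-3, which nucleates actin at the pointed ends of thin filaments, had no read in NP and 176, 143 and 167 reads in LP. The LP mean of 51.1 ± 7.2 CPM (SD, n = 2) was at least 50.4-fold above a level of 3 reads in each NP library.

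Nrap, Xirp2 and Cmya5 encode large scaffold proteins of myofibril assembly, of the junctions between filaments and membrane, and of the costamere. Nrap (ENSRNOT00000038038), a nebulin-related protein of the myotendinous junction and of growing myofibrils, was counted 10, 2 and 6 times in the NP libraries and 1699, 1686 and 1694 times in the LP libraries. NP replicate 1 was the highest of the NP libraries, while the LP libraries hardly differed in reads. Its ratio was 254 (95% counting interval 161 to 429). Xirp2 (ENSRNOT00000048300), a Xin repeat protein that binds actin and α-actinin, had 4 reads in each NP library against 1424, 1443 and 1393 in the LP libraries, for a ratio of 320 (95% counting interval 183 to 620). Cmya5 (ENSRNOT00000073710), myospryn, a tripartite motif related protein that binds desmin and α-actinin, was counted 11, 19 and 10 times in the NP libraries and 3025, 3100 and 3057 times in the LP libraries. NP replicate 2 was the highest of its group and still far below each LP library, and the ratio was 207 (95% counting interval 152 to 290).

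Trim54 (ENSRNOT00000008113), also called MuRF3, is a RING-finger ubiquitin ligase that associates with microtubules and the sarcomere. It was counted 2, 0 and 1 times in the NP libraries and 417, 421 and 391 times in the LP libraries, so the groups were far apart. With 3 NP reads in all, its ratio of 369 had a counting interval from 126 to 1790. The LP mean was 127 ± 9.1 CPM (SD, n = 2).

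**Figure D1:**
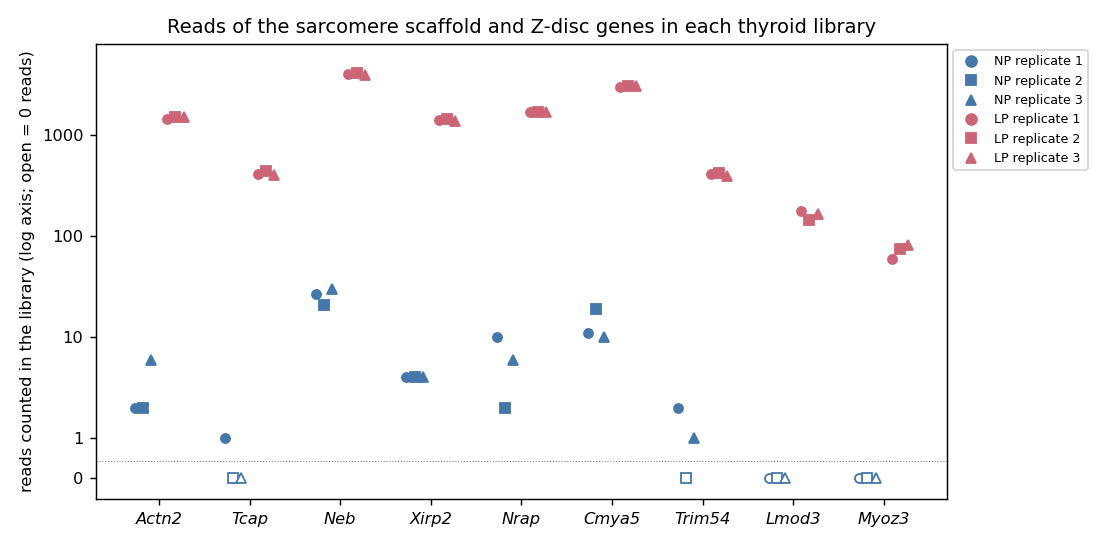
Reads counted for each of the 9 genes in each NP library (blue) and LP library (red), on a log axis, with 1 symbol per replicate and open symbols for 0 reads. For every gene the 3 LP symbols lie close together and above all NP symbols, from Myoz3 at 59 to 81 LP reads to Neb at 3963 to 4114.

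Ordered by size, the ratio fell from Tcap through Actn2, Trim54, Xirp2, Nrap and Cmya5 to Neb. In this order the counting interval of each gene overlapped that of the next, so neighbours were not told apart, although the intervals of Actn2, Tcap and Xirp2, from 218, 203 and 183, began above the upper end of that of Neb, 176. The ratios were also taken within replicate 1 alone and within replicates 2 and 3 alone. Xirp2 had 318 and 321, Neb 132 and 143, and Cmya5 246 and 192. The other genes moved more, with 649 and 339 for Actn2, 152 and 382 for Nrap, and 186 and 734 for Trim54. Tcap had a ratio of 365 in replicate 1 and no NP read in replicates 2 and 3. Leaving out single NP libraries moved some fitted log2 fold changes by more than 1.5 times in fold. Without NP replicate 1 the value of Tcap went from 9.71 to 11.67, that of Trim54 from 8.37 to 9.26 and that of Nrap from 7.96 to 8.57, and without NP replicate 3 that of Actn2 went from 8.60 to 9.28. In the edgeR model the median log2 fold change of the 9 genes was 8.37, or 7.96 with Lmod3 and Myoz3 set at their lower bounds, against a median of -0.01 over all genes tested.

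**Figure D2:**
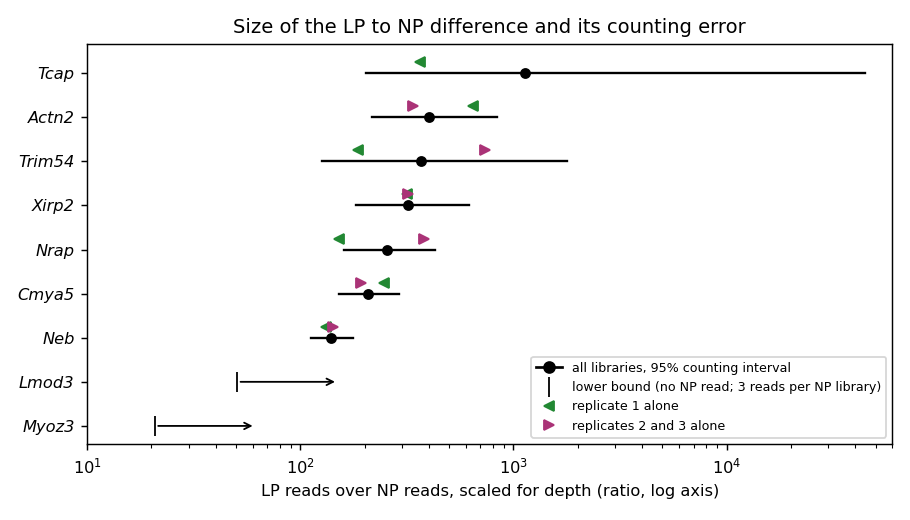
Ratio of depth-scaled LP reads to NP reads for each gene, on a log axis, with its 95% counting interval over all libraries (black), the ratio in replicate 1 (green) and in replicates 2 and 3 (purple), and an arrow from the lower bound for genes with no NP read. The intervals widen as NP reads fall, from 112 to 176 for Neb to 203 to 44700 for Tcap.

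Within LP the 9 genes varied little. Their summed reads were 12651, 12926 and 12652 in LP replicates 1, 2 and 3, so the highest library exceeded the lowest by 2.17%, while the total reads of the LP libraries differed by 7%. Against equal reads in the 3 LP libraries, the 9 genes had values of chi-square per degree of freedom between 0.0254 for Nrap and 1.8 for Lmod3 and Myoz3, where counting noise alone gives about 1. Against reads in proportion to the normalized library sizes it lay between 0.855 for Actn2 and 6.48 for Neb, with replicate 1, the smallest LP library, holding nearly as many reads of these genes as the larger ones. The SD of the LP level was between 2.5% and 14% of the mean. The shares of the 9 genes among their summed reads differed between the LP libraries by no more than counting noise, with a value of 0.79 per degree of freedom (16 degrees of freedom).

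Between the groups, the division of reads among the 9 genes went beyond the 95% binomial intervals for Neb. For Actn2 it did so with all NP libraries summed and without NP replicate 3, but not without NP replicate 1 or 2. The intervals of the other 7 genes overlapped at a depth of 162 NP reads. The intervals cover counting error only. These shares count reads, which also grow with transcript length, so they do not rank the genes by level. Neb took 31.6% (95% exact binomial interval 31.1 to 32) of the reads of the 9 genes in LP and 48.1% (40.2 to 56.1) in NP. Cmya5 took 24% (23.6 to 24.4) in LP and 24.7% (18.3 to 32.1) in NP. Actn2 took 11.7% (11.3 to 12) in LP and 6.17% (3 to 11.1) in NP. Its NP share was 3.51%, 4.17% and 10.5% in replicates 1 to 3, and 3.81% (1.05 to 9.47) without NP replicate 3. Without NP replicate 1 it was 7.62% (3.35 to 14.5), and without NP replicate 2 it was 7.02% (3.08 to 13.4). Both of these intervals cover the LP share. The NP share of Neb was between 45.7% and 50% with any 1 NP library left out, with intervals that stayed above the LP share. Nrap took 13.3% in LP and 11.1% (6.72 to 17) in NP. Lmod3 and Myoz3 took 1.27% and 0.562% in LP, and the NP reads allow each a share of up to 2.25%.

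**Figure D3:**
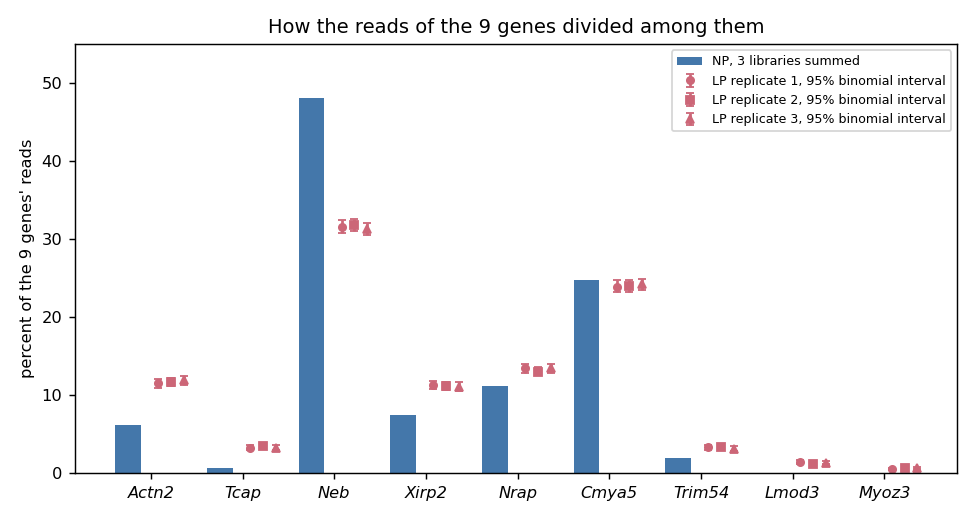
Percent of the summed reads of the 9 genes that fell on each gene, as bars for the 3 NP libraries summed (162 reads) and as points with 95% binomial intervals for each LP library. The 3 LP libraries coincide for each gene, and Neb takes the largest share in both groups, 48.1% in NP and 31.6% in LP.

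The other genes of the same structures were taken from a list of 46 further genes, of which 41 were in the tables and 36 passed the filter. By edgeR's quasi-likelihood test, 27 of the 36 were past the criteria with higher levels in LP and 0 with lower levels, where 4.90% and 0.537% of all genes tested were. At an unadjusted p-value under 0.05, 33 were higher and 0 lower, and DESeq2 called 28 higher and 0 lower, while 19.5% and 17.3% of all genes tested were higher and lower at that unadjusted p-value. Of the 36 genes, 11 had an NP mean under the 3-read level, so that only their LP reads could bring them into the test, and all 11 were called higher. Of the other 25, 16 were called higher. The median log2 fold change of the 36 was 4.29, or 3.81 with the 2 genes without NP reads at their bounds. The list was written with earlier results of these data known.

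Among the Z-disc partners, 14 of 17 tested genes rose in LP. The other 3, Pdlim5, Pdlim7 and Palld, had log2 fold changes of 0.57, 0.39 and 0.45. Their adjusted p-values by edgeR were 6.69e-04, 0.0228 and 0.0443, so they missed only the fold change of 2. Ldb3, also called cypher or ZASP, which binds α-actinin through its PDZ domain, was at 6.03 ± 1.4 CPM (SD, n = 2) in NP and 496 ± 20 CPM in LP, and rose by 6.25 on the log2 scale (standard error 0.099, adjusted p = 8.14e-18 by edgeR). Actn3, the α-actinin of fast fibres, was at 5.79 ± 1.9 CPM in NP and 371 ± 24 CPM in LP, and rose by 6.10 (standard error 0.11, adjusted p = 4.75e-17 by edgeR). Ankrd23, an ankyrin repeat protein that binds titin, rose by 7.04 on the log2 scale. Desmin (Des), the intermediate filament that links Z-discs, rose by 3.08, filamin C (Flnc) by 3.66 and Synpo2 by 2.50 on the log2 scale. These last 3 genes differed between NP replicates, with 58, 382 and 369 reads for Des, 28, 126 and 133 for Flnc and 19, 120 and 107 for Synpo2. Their NP reads were lowest in replicate 1, as were those of smooth muscle markers, and the part of smooth muscle in their values was not tested.

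Of the M-band genes, Myom3 (myomesin-3), which cross-links thick filaments, rose by 7.06 on the log2 scale. Obsl1, with a log2 fold change of 0.89, did not pass the fold change of 2. Of the thin filament genes, 4 of 9 rose. Klhl41, a kelch protein of muscle, rose by 5.82, Tmod4, the tropomodulin of skeletal muscle, by 3.97, and Tmod1 by 2.01 on the log2 scale. Klhl40, which stabilizes nebulin and leiomodin-3, was counted 0, 1 and 2 times in the NP libraries and 162, 182 and 162 times in the LP libraries, and rose by 7.09 (7.92 without NP replicate 3). Klhl40 and Trim55 are named here for their link to Neb, Lmod3 and Trim54, after their values were seen. The tropomyosins Tpm1, Tpm2 and Tpm3 had log2 fold changes of 0.39, 1.24 and 0.49 and did not pass the criteria. Their adjusted p-values by edgeR were 0.382, 0.0761 and 2.68e-04, so Tpm3 missed only the fold change of 2. Tpm2 was counted 10, 613 and 615 times in the NP libraries and 702, 1248 and 1263 times in the LP libraries. Its ratio of reads was 62.7 in replicate 1 and 1.85 in replicates 2 and 3. For Tpm1 these ratios were 1.8 and 1.24. The part of smooth muscle in these values was not tested. With the replicate number as a block, Tpm2 passed the criteria, at 1.26, and it also did without LP replicate 1, at 1.43.

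All 7 genes of protein turnover and folding in muscle rose, and 5 of them had an NP mean under the 3-read level, so they could be tested only through their LP reads. The relatives of Trim54 were low in reads, with 2, 1 and 3 NP reads and 76, 82 and 71 LP reads for Trim63 (MuRF1), and no NP read and 29, 39 and 32 LP reads for Trim55 (MuRF2). Smyd1, a methyltransferase of muscle, had no NP read and was at least 49.6-fold higher in LP than a level of 3 reads in each NP library. Unc45b, a myosin chaperone, rose by 6.55 (7.20 without NP replicate 3), and Fbxo40, a muscle ubiquitin ligase, by 6.20 on the log2 scale (6.85 without NP replicate 2). Fbxo32 (atrogin-1) rose by 1.23, a call that was lost without NP replicate 1 at 0.99, and the co-chaperone Bag3 by 1.31.

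Relatives of the 9 genes that serve actin structures of other cells gave a different picture. Of the 8 tested, 0 were past the criteria with higher levels in LP by edgeR or DESeq2, and Pdlim2 was past them with a lower level. At an unadjusted p-value under 0.05, 0 were higher and 4 lower, against 19.5% and 17.3% of all genes tested. Actn1 and Actn4, the α-actinins of non-muscle cells, were at 322 ± 6.8 and 410 ± 2.8 CPM (SD, n = 2) in NP and at 240 ± 22 and 379 ± 7.7 CPM in LP, with differences on the log2 scale of -0.40 (standard error 0.062, adjusted p = 8.26e-05 by edgeR) and -0.11 (standard error 0.049, adjusted p = 0.109 by edgeR). Lasp1, a nebulin family protein of focal adhesions, had a log2 fold change of 0.02 (-0.01 without NP replicate 1), and the tropomodulins Tmod3 and Tmod2 had -0.17 and 0.58. Lmod1, the leiomodin of smooth muscle, was counted 4, 107 and 84 times in the NP libraries and 4, 92 and 82 times in the LP libraries, so replicate 1 was low in both groups and its log2 fold change was -0.28, with a sign that turned when 1 library was left out. Pdlim1 and Pdlim2, PDZ and LIM domain proteins that bind α-actinin, had log2 fold changes of -0.74 and -1.01. Pdlim2 lay at the edge of the fold change of 2, and it was not past it without NP replicate 1, at -0.96.

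**Figure D4:**
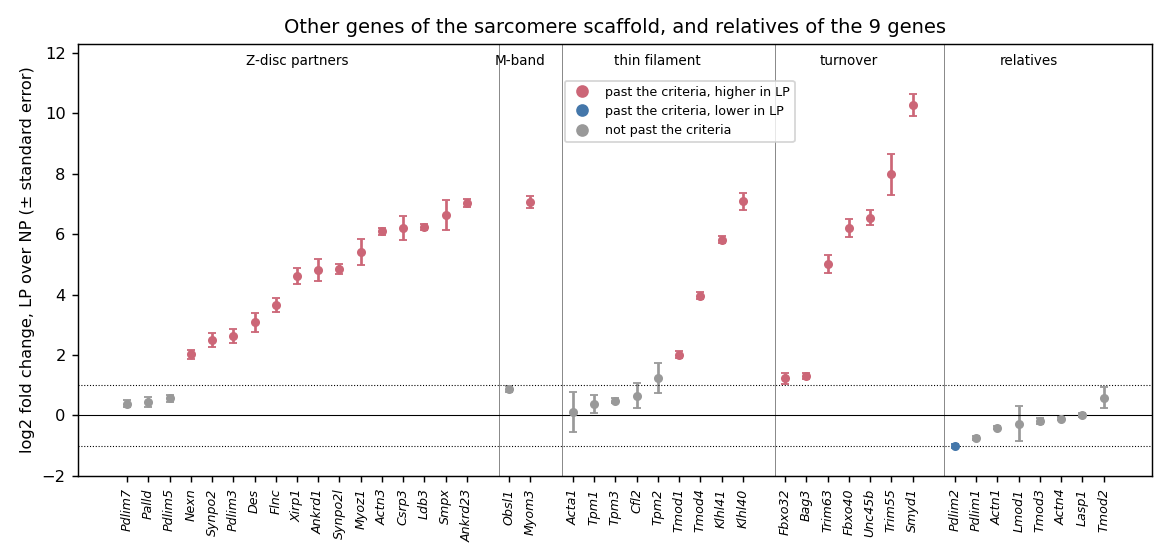
Log2 fold change, LP over NP, with its standard error, for tested genes of the Z-disc, M-band, thin filament and turnover lists and for relatives of the 9 genes outside striated muscle. Genes past the criteria and higher in LP (red) appear in each of the first 4 lists, while the relatives lie between -1.01 and 0.58. Values for Trim55 and Smyd1, which had no NP read, depend on how a count of 0 is treated.

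Markers of skeletal muscle moved with the 9 genes. The summed level of the fast skeletal list, 12 of 16 genes being in the tables, was between 17.9 and 71.7 CPM in NP. Of these NP reads, Acta1 had 0, 166 and 144 in replicates 1 to 3, and the other 11 genes had 50, 53 and 63. In LP the list was between 3950 and 4190 CPM, and 9 of the 10 tested rose, where Acta1 did not pass. Tnnc2 (fast troponin C), Atp2a1 (the calcium pump of fast fibres) and Ryr1 (the calcium release channel) rose by 7.63, 8.22 and 7.94 on the log2 scale. The slow list was between 0.328 and 1.64 CPM in NP and between 186 and 199 CPM in LP, and its 4 tested genes (Tnnc1, Tnni1, Tnnt1 and Myl3) were all called higher. All 4, and 4 of the 10 tested genes of the fast list, had NP means under the 3-read level and were tested only through their LP reads, so they could not have come out lower. Of the other 6 fast genes, 5 rose. Per read of 11 fast markers (Acta1 left out), the 9 genes were counted 1.14, 0.906 and 0.905 times in the NP libraries and 0.964, 0.983 and 0.948 times in the LP libraries. The NP values rest on only 57, 48 and 57 reads of the 9 genes and 50, 53 and 63 reads of the markers. Their counting error was not computed. Acta1 was left out after its values were seen. Over all 12 fast markers the NP values were 1.14, 0.219 and 0.275 and the LP values 0.964, 0.969 and 0.935, so the ratio was lower in NP replicates 2 and 3. The part of skeletal muscle tissue in the samples was not tested, and the genes that mark it are of the same kind as the 9 genes.

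Some genes of muscle sarcomeres and their membranes stayed at few reads in LP, or differed by replicate. They are named here after their values were seen. Acta1, the α-actin of adult skeletal muscle, was counted 0, 166 and 144 times in the NP libraries and 0, 186 and 185 times in the LP libraries, so replicate 1 had none in either group and its log2 fold change was 0.11 (adjusted p = 0.93 by edgeR), or -0.44 without NP replicate 1. Casq1, the calcium buffer of the sarcoplasmic reticulum in fast fibres, was at 0, 4 and 2 reads in the NP libraries and 0, 2 and 1 in the LP libraries. Myom1, a myomesin, was at 0, 6 and 7 reads in the NP libraries and 0, 10 and 5 in the LP libraries, and Ankrd2 at 1, 3 and 0 and then 0, 2 and 2. Myom2 and Myot had no NP read, with 2, 1 and 1 and with 8, 3 and 8 reads in the LP libraries, so both were higher in every LP library, at levels too low for the filter. With no filter, Myot had an adjusted p = 0.00283 by edgeR. Muscle creatine kinase (Ckm) and myoglobin (Mb), like Myh2 and Myh4, were on the fast skeletal list but were not found in the count tables. Titin was not analysed here.

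Of the heart markers, Myl4, which developing skeletal muscle also uses, rose by 4.93 on the log2 scale (6.14 without NP replicate 3), from an NP mean under the 3-read level. Nppa and Myl7 had at most 3 reads in any library, and the list was between 29.2 and 34 CPM in NP and between 53.4 and 58.8 CPM in LP. Of the list of muscle precursors and the neuromuscular junction, Pax7, Myod1 and Musk were in the tables, with no NP read and at most 5 reads in an LP library. Pax7 and Musk were higher in every LP library, at levels too low for the filter, and Myod1 was not. With no filter, Pax7, Musk and Myod1 had adjusted p-values by edgeR of 0.0155, 0.0109 and 0.276. Apart from Myl4, these genes are named after their values were seen. Smooth muscle markers followed the replicate and not the group, with 266 CPM in NP replicate 1 and 204 CPM in LP replicate 1 against 1750 to 1880 CPM in the other libraries, and 0 of the 6 passed the criteria by edgeR or DESeq2, and 0 had an unadjusted p-value under 0.05.

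The summed level of thyroid follicle markers, nearly all of it thyroglobulin (Tg), was between 231000 and 258000 CPM in the 6 libraries, and that of the other 9 between 7820 and 8850 CPM. By the criteria 0 of 10 passed by edgeR or DESeq2, while 6 had an unadjusted p-value under 0.05, 3 of them higher and 3 lower in LP. Slc5a5, the iodide transporter, was at 342 ± 4.9 CPM (SD, n = 2) in NP and 179 ± 2.8 CPM in LP, a difference of -0.94 on the log2 scale (adjusted p = 3.08e-10 by edgeR), under the fold change of 2. Tshr, the receptor for thyrotropin, was at 334 ± 29 CPM in NP and 208 ± 14 CPM in LP, with -0.68 (adjusted p = 3.99e-07 by edgeR). For Hhex, Nkx2-1 and Duox2 the differences were -0.26, 0.28 and 0.29, with adjusted p-values by edgeR of 6.9e-04, 0.0021 and 0.00947. These 5 are named after their values were seen. None of the 4 C cell, 3 parathyroid or 3 brown fat genes tested passed them by either tool, and 1, 2 and 0 of them had an unadjusted p-value under 0.05, a level reached in either direction by 36.7% of all genes tested. Ucp1, the uncoupling protein of brown fat, did not pass the filter, with 12, 9 and 9 NP reads and 2, 4 and 4 LP reads, and with no filter its log2 fold change was -1.70 (adjusted p = 0.0116 by edgeR). It is named after its values were seen. These lists had summed levels of 13800 to 14700, 4460 to 4830 and 37.4 to 50 CPM in NP and of 12200 to 12900, 3720 to 4030 and 45.7 to 48.2 CPM in LP. The squamous epithelium genes of the oesophagus (Krt4, Krt13 and Dsg3) were between 27.3 and 30.8 CPM in NP and between 37.7 and 48.2 CPM in LP, with 0 of 2 tested past the criteria by edgeR or DESeq2 and both at an unadjusted p-value under 0.05, higher in LP. These are low levels in every library. The list of airway and cartilage genes was between 0.715 and 3.61 CPM in NP and between 5.34 and 9.58 CPM in LP, and its 1 tested gene, Scgb1a1, a secretory protein of the airway, rose by 1.60 on the log2 scale, a call that DESeq2 did not make and that was lost without replicate 1 of both groups (0.99).

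**Figure D5:**
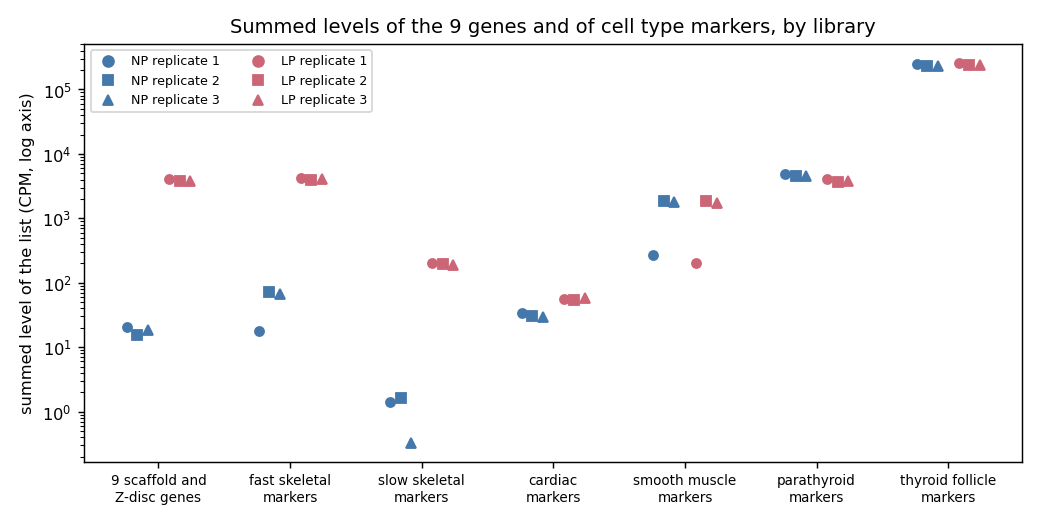
Summed level in CPM, on a log axis, of the 9 genes and of 6 lists of cell type markers in each NP library (blue) and LP library (red). The 9 genes and the skeletal muscle lists differ most between groups. Cardiac markers lie at 29.2 to 34 CPM in NP and 53.4 to 58.8 CPM in LP, and parathyroid markers at 4460 to 4830 and 3720 to 4030 CPM. Smooth muscle markers differ between replicate 1 and the others in both groups. The sum of thyroid follicle markers, nearly all Tg, lies between 231000 and 258000 CPM in all 6 libraries.

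The genes with the pattern most like the 9 were found by the root mean square difference between their profile and the median profile of the 9 genes over the 6 libraries, on the log2 scale. Among 11359 candidates the closest was Tnnc2 at 0.177, with 22, 14 and 26 NP reads and 4554, 4532 and 4641 LP reads. It was followed by Cacna1s, the voltage sensor of skeletal muscle, at 0.271, Art1, an ADP-ribosyltransferase, at 0.309, Hfe2, hemojuvelin, at 0.372, and Atp2a1 at 0.377. The 9 genes themselves lay between 0.218 for Neb and 1.01 for Myoz3 from their median.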

How the data were processed

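Read counts of 3 NP and 3 LP thyroid samples were used. Alignment by the authors used TopHat 1.4.0 and rn5, reads were counted per Ensembl gene model with HTSeq-count, and the authors deposited raw counts without normalization, under 1 transcript identifier per gene. How that identifier was chosen is not given in the sources used here. Depth is given with the results. Group and replicate were read from the sample labels.

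LP was compared with NP by edgeR 4.0.16 (quasi-likelihood test, TMM, default filter, R 4.3.3) with Benjamini-Hochberg adjustment over 11738 genes, with criteria of over 2 in fold change and under 0.05 in adjusted p-value. Standard errors were taken from the log2 fold change and its F statistic. CPM values are scaled by TMM, and ratios of reads carry exact conditional intervals that cover counting error only. A gene without NP reads was compared with 3 reads in each NP library. Profiles used log2(CPM + 0.5), for genes with at least 10 reads in each LP library.

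The members and lists were chosen with earlier results of these data known. Besides the 9 genes, the text names at most 6 genes per list, those with the most LP reads among genes past the criteria or with a mean of at least 100 LP reads, every relative of the 9 genes, and the 5 genes of most similar pattern; exceptions are stated, and 1 gene counted in the lists is not reported here. Same-numbered samples of the groups deviated together, with correlations across genes of 0.493, 0.223 and 0.192, so the replicate number was treated as pairing and used as a block in an alternative. Replicates 2 and 3 correlated as well when crossed (0.216 and 0.216). Other alternatives were DESeq2 1.42.0, its size factors, TMM without striated muscle genes, other filters, a test of the fold change against 2, replicates 2 and 3 summed, each sample left out, and, chosen after seeing the data, both replicate 1 samples left out. The fits were tested on simulated data. Motifs were searched in RefSeq windows of GRCr8, another assembly than rn5.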

Additional observations from a re-analysis of the deposited data

How the results depend on the processing

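All 9 genes were past the criteria under each alternative, except that Myoz3 was not tested where a mean of at least 50 reads was required, which left 8. With the replicate block, 576 genes were higher and 65 lower in LP, against 575 and 63 without it, and 28 of the other sarcomere scaffold genes rose, against 27. With replicates 2 and 3 summed, 606 genes were higher and 63 lower, and 27 scaffold genes rose. The stricter filter, which tested 7943 genes, left 286 higher and 29 lower, and the test of the fold change against 2 left 366 and 23. No filter gave 677 and 86, and DESeq2 gave 573 and 55. Leaving out single samples gave 577 to 625 higher and 68 to 79 lower, 26 to 28 scaffold genes, and between 0 and 1 relatives lower in LP. The 1 relative, Pdlim2, was not called (0 genes) with the stricter filter, with the fold change tested against 2, without NP replicate 1 or without replicate 1 of both groups, and the cause was not tested. The log2 fold changes of the 9 genes kept their sign in all 152 values, and 16 moved by more than the spread between replicates. Genes with few or no NP reads moved most. Tcap ranged from 8.49 to 11.67, Lmod3 from 7.12 to 10.88, Myoz3 from 5.93 to 9.67 and Trim54 from 7.81 to 9.26, the lowest of Tcap, Lmod3 and Myoz3 being the ratio of group means with 0 reads taken as 1. Neb stayed between 6.96 and 7.21 and Xirp2 between 8.24 and 8.32. Of the other genes named, Lmod1 ranged from -0.8 to 0.25, Lasp1 from -0.01 to 0.04 and Acta1 from -0.44 to 0.65 when single samples were left out, with both signs. Calls of Tpm2, Fbxo32, Scgb1a1 and Pdlim2 changed under at least 1 alternative each. Hfe2 rose by 9.49 and Tnni1 by 9.85 without NP replicate 1, and Tnnc1 by 8.31 without NP replicate 2, against 8.59, 7.10 and 7.41. NP depth limits the size of these differences.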
